A study of Homo sapiens with 4 samples.

Results

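The genes that license replication origins, run the replication fork and supply its nucleotides were followed in the cell line SUM159, which comes from a triple-negative breast cancer and is of mesenchymal character. The set holds 50 genes given by name, of 60279 genes in the count tables. No rule on measured values picked them, but earlier results of these data were known when they were chosen. The set was divided into 15 origin licensing genes, 28 fork genes, 4 nucleotide supply genes and 3 other S-phase genes. RNA was sequenced from untreated cells, cells treated with palbociclib, an inhibitor of the cell cycle kinases CDK4 and CDK6, cells treated with indisulam, a sulfonamide that sends the splicing factor RBM39 for degradation, and cells treated with the combination of both drugs. The sample labels state 10 days of treatment with 0.5 µM palbociclib, 2 µM indisulam or both, whereas the text on the series states 16 h with 2 µM and 3 µM. The paper describes RNA sequencing of SUM159 cells under both settings, so dose and duration of these libraries are uncertain. The study asked how indisulam alters the response of cancer cells to palbociclib, and these libraries set each drug alone beside both together.

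Each condition had 1 library, so no difference could be set against the spread between replicates and no p-value is given. The libraries held 12555908 (untreated), 12691481 (palbociclib), 16712174 (indisulam) and 14359529 (combination) reads in genes. Levels are given as CPM, a gene's share of the reads in genes multiplied by 1000000. A comparison is given as the log2 ratio of counts scaled to equal library totals, with 1 scaled count added, and a 95% interval that covers counting error only. A gene was called higher or lower when the ratio was at least 2-fold and the interval excluded equality, among 14269 genes with a mean of at least 1 CPM. The 50 replication genes all passed that filter, with no count below 45. Of the markers of the line, VIM (2642 to 4598 CPM), CD44 (706 to 883 CPM) and ZEB1 (46.3 to 86.1 CPM) were abundant, and ESR1, PGR, EPCAM and CDH1 stayed at or below 1.95 CPM. Of 2 markers of other cell types, the leukocyte gene PTPRC lay between 11.1 and 17.5 CPM, and the endothelial gene PECAM1 read 15.2, 40.9, 17.5 and 20.4 CPM in the untreated, palbociclib, indisulam and combination libraries. The part of PECAM1-expressing or PTPRC-expressing cells in the differences between libraries was not tested.

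In G1, the origin recognition complex (ORC), CDC6 and CDT1 load the MCM2 to MCM7 helicase onto DNA, and geminin (GMNN) blocks CDT1 once S phase has begun. CDC45 and the GINS complex then activate the helicase, and polymerases, the clamp PCNA and its loader RFC copy the strands with deoxynucleotides made by ribonucleotide reductase, thymidylate synthase and thymidine kinase. Many of these genes are transcribed by E2F factors, which the retinoblastoma protein holds back until cyclin-dependent kinases release them. In bulk RNA, fewer cells in S phase and less RNA of these genes per cell cannot be told apart.

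With palbociclib the set split. Of the 50 genes, 6 (12%) were called higher (ORC6, MCM2, MCM3, GINS4, FEN1 and DTL), where 5.85% of all genes tested were. Called lower were 5 (10%: CDT1, GMNN, RPA3, TYMS and TK1), where 4.89% of all genes were. With indisulam 4 (8%) were called higher (ORC6, MCM10, GINS1 and FEN1) and 0 lower, against 8.39% and 6.69% of all genes. The share of higher calls was thus near the background. With the combination 13 (26%) were called higher and 0 lower, against 12.9% and 10.5% of all genes. The 13 were ORC6, CDC6, MCM2, MCM3, MCM4, MCM10, GINS1, GINS3, RFC3, PRIM2, FEN1, CLSPN and DTL. All 50 genes averaged at least 5 CPM. Among the 11376 genes at that level the shares called higher and lower were 3.85% and 3.47% with palbociclib. They were 5.88% and 4.77% with indisulam, and 9.73% and 8.76% with the combination. The median log2 ratio of the 50 genes to untreated was 0.16 with palbociclib, 0.54 with indisulam and 0.45 with the combination, and that of all genes tested was -0.02, 0.06 and 0.05. These 3 comparisons share the untreated library. In 25 of the 50 genes the untreated library was the lowest and in 20 the palbociclib library was, against 29.5% and 26.6% of all genes. The combination library was the highest in 22 of the 50 genes, against 30.2% of all genes. In all, 22 of the 50 genes were called in at least 1 of 5 comparisons and 28 in none, and 33.9% of all genes tested were called in at least 1.

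**Figure D1:**
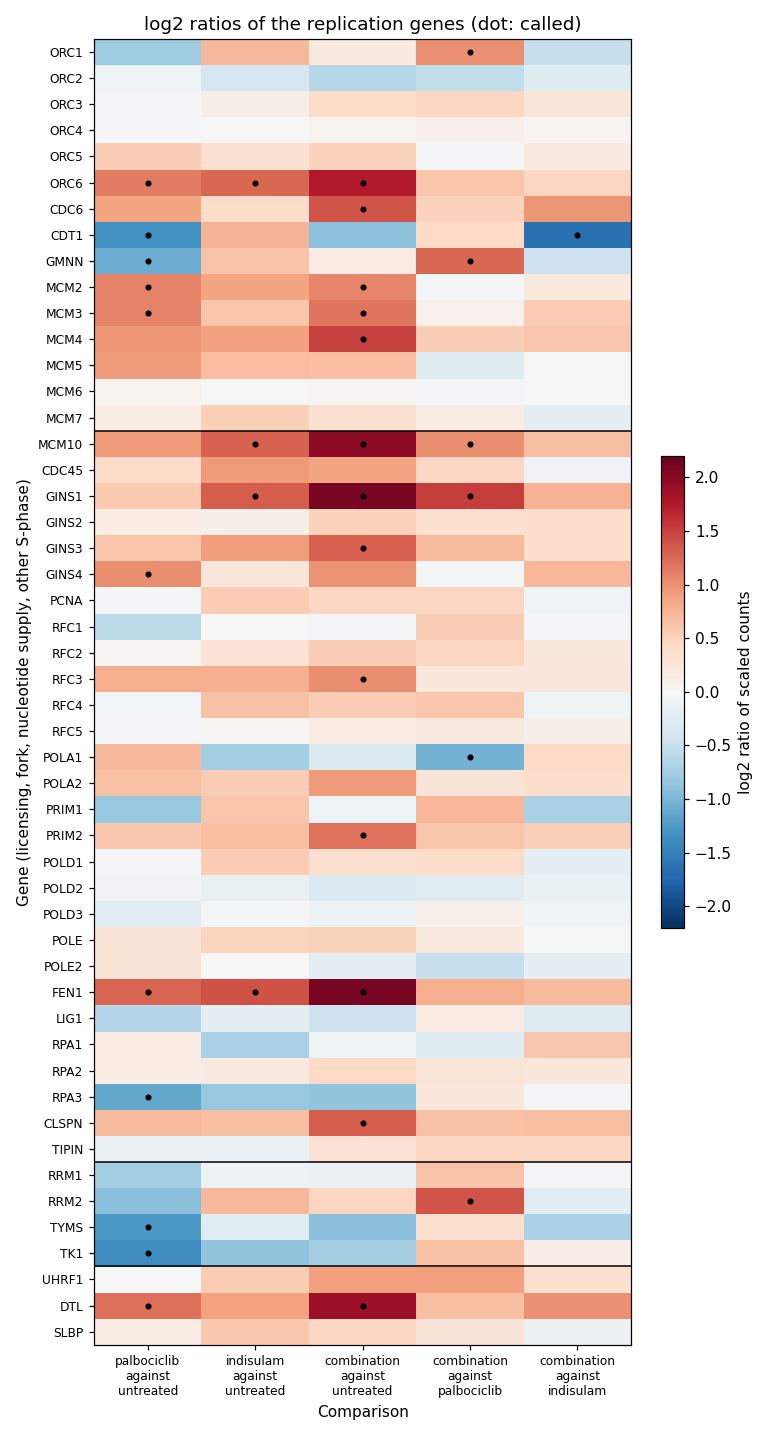
Log2 ratios of scaled counts for the 50 replication genes (rows, in the order licensing, fork, nucleotide supply and other S-phase) in 5 comparisons (columns), red where the first-named library was higher and blue where it was lower, with a dot on each called gene. The palbociclib column holds 6 called red cells and 5 called blue ones, and the combination against untreated column holds 13 called red cells and no called blue one.

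The start regions of these genes were compared for what they share in sequence. RefSeq windows on GRCh38.p14, from 250 bases before to 50 after the first listed transcription start, matched 44 of the 50 genes, and 11 of these had more than 1 listed window. An E2F-type site, searched on both strands as TTTCCCGC, TTTCGCGC, TTTGCCGC or TTTGGCGC, was present in 21 of 44 windows (47.7%) and in 5.32% of the windows of 10775 tested genes. The shares were 7 of 13 licensing, 11 of 24 fork, 1 of 4 nucleotide supply and 2 of 3 other S-phase genes. A CCAAT box was found in 59.1% of the windows of the set and in 37% of those of tested genes. The element TTTGAA, of the type found in genes expressed late in the cell cycle, was found in 1 window of the set (2.27%, RRM1), against 9.89%. The E2F-type forms can overlap each other on opposite strands, and a match is a string of letters, not a shown binding site.

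The windows of 5 genes are shown, each 5′ to 3′ on the strand of its gene, with E2F-type sites and CCAAT boxes (ATTGG on the other strand) in capitals. TK1 and FEN1 had the lowest and the highest ratios with palbociclib, and also with indisulam, among the genes that could be shown. MCM3 (called higher with palbociclib), CDT1 (called lower) and MCM6 (the gene with the smallest range over the libraries) were added after their values were seen.
MCM3, chr6:52284693-52284992, minus strand: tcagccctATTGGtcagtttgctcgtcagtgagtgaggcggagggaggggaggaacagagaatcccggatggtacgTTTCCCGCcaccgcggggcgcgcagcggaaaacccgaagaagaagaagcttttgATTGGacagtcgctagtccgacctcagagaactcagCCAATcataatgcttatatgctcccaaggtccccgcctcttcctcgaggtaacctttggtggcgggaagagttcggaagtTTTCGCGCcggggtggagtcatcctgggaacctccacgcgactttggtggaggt
CDT1, chr16:88803539-88803838, plus strand: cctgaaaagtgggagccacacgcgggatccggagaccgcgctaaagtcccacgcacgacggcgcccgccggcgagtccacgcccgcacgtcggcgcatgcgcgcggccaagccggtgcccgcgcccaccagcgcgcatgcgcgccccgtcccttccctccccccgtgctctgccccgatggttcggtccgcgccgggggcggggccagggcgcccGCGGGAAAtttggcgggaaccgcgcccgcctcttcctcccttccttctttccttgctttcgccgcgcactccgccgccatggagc
MCM6, chr2:135876394-135876693, minus strand: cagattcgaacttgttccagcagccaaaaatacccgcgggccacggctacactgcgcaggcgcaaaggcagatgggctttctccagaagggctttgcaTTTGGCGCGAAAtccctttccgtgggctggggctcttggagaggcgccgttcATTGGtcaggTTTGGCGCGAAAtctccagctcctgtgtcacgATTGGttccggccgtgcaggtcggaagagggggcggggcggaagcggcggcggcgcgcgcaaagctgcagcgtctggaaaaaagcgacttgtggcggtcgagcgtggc
FEN1, chr11:61792661-61792960, plus strand: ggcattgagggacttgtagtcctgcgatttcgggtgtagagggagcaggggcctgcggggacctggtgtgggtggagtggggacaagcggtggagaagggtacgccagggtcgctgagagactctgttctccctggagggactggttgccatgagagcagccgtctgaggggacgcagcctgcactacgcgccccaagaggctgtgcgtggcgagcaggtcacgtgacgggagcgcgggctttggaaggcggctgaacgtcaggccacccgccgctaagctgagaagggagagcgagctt
TK1, chr17:78187155-78187454, minus strand: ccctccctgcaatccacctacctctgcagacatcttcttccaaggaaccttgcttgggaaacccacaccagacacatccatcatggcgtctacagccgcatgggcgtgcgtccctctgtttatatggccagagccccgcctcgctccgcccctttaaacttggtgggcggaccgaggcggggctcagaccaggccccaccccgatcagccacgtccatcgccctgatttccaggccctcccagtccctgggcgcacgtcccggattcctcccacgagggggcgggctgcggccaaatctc
The MCM3 window held 2 E2F-type sites, starting at -174 and -4 from the transcription start, and the CDT1 window held 1, starting at -35. The MCM6 window held 4 matches that overlap in pairs, in stretches starting at -152 and -90. The FEN1 and TK1 windows held none of the letters searched, which says nothing of whether an E2F factor acts there. The printed windows of called genes included some with an E2F-type site (MCM3 and CDT1) and some without (FEN1 and TK1), and MCM6, which was not called, held several. Because the printed genes were picked by their values, this mix cannot show whether such sites go with calls.

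The helicase genes MCM2 to MCM7 were all lowest in the untreated library, and 4 of the 6 were close to 2-fold higher with palbociclib. MCM2, on chromosome 3, read 36.8 CPM untreated, 78.4 with palbociclib, 67.0 with indisulam and 77.3 with the combination. Relative to untreated, the log2 ratio was 1.09 with palbociclib (interval 0.93 to 1.25), 0.86 with indisulam (0.71 to 1.02) and 1.07 with the combination (0.91 to 1.23), so the 3 treated libraries lay together above the untreated one. The combination was not called with TMM (0.98) or median-of-ratios factors (0.99). MCM3, whose start region is printed above, read 56.6, 121, 86.6 and 128 CPM in the same order, and was called higher with palbociclib (1.09, 0.96 to 1.22) and with the combination (1.18, 1.05 to 1.30). MCM4 read 47.2, 92.4, 88.6 and 134 CPM, and only the combination was called (1.51, 1.37 to 1.64), the palbociclib ratio of 0.97 falling short of 2-fold. In MCM4 the combination therefore stood above both single drugs, with log2 ratios of 0.54 to palbociclib and 0.60 to indisulam. MCM5 was not called, with log2 ratios to untreated of 0.93, 0.68 and 0.66 for palbociclib, indisulam and the combination.

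MCM6 and MCM7, subunits of the same ring, did not move alike. MCM6 read 55.7, 58.3, 56.2 and 56.4 CPM in the untreated, palbociclib, indisulam and combination libraries, and every log2 ratio to untreated lay between 0.01 and 0.07 with an interval that included 0. MCM7 read 78.7, 88.6, 114 and 98.8 CPM, highest with indisulam (log2 0.53, interval 0.42 to 0.64). Per kilobase of merged exons, a scale on which genes can be compared, MCM6 was at 13.5 CPM per kb in untreated cells, close to MCM3 (15.5) and MCM7 (15.9) and above MCM2 (7.8), MCM4 (4.79) and MCM5 (4.36). With palbociclib MCM6 (14.1 CPM per kb) lay below MCM2 (16.6), MCM3 (33.1) and MCM7 (17.9). The merged exons of MCM4 span 9.85 kb and those of MCM5 7.27 kb, against 4.135 kb for MCM6. These lengths include any rarely used exons, which lowers the values per kilobase, so the order of the genes depends on the annotation. The summed CPM of the 6 genes was 1.63 times that of untreated cells with palbociclib, 1.51 times with indisulam and 1.78 times with the combination.

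The loading factors around the helicase went in different directions with palbociclib. CDT1 (chromosome 16, 88803789 to 88809258), which brings MCM2 to MCM7 to the origin, read 25.2 CPM untreated, 9.93 with palbociclib, 42.2 with indisulam and 13.4 with the combination. Both libraries with palbociclib thus lay below both without it. CDT1 was called lower with palbociclib alone (log2 -1.34, interval -1.64 to -1.04) and when palbociclib was added to indisulam (-1.65, -1.88 to -1.42), and was the only 1 of the 50 genes called in the same direction in both. Of the 14269 genes tested, 178 were called lower and 284 higher in both. The ratio of indisulam to untreated was 0.74 (0.55 to 0.93), and that of the combination to untreated, at -0.91, was not called.

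GMNN, the inhibitor of CDT1, read 16.2, 7.56, 25.1 and 18.4 CPM in the untreated, palbociclib, indisulam and combination libraries. It was called lower with palbociclib (log2 -1.10, interval -1.44 to -0.75) and called higher in the combination against palbociclib (1.27, 0.94 to 1.61). Unlike CDT1, it was near the untreated level with the combination (0.18, -0.09 to 0.44). CDC6, which works with CDT1 in loading, read 14.0, 25.8, 18.6 and 36.6 CPM and moved the other way: its log2 ratio was 0.87 with palbociclib, short of a call, and 1.38 (1.14 to 1.63) with the combination. The 2 partners in helicase loading were thus apart in both libraries with palbociclib, CDC6 above and CDT1 below the untreated level.

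Among the 6 ORC genes, ORC6 and ORC1 were called. ORC6, the smallest subunit, read 7.09, 15.6, 17.2 and 23.9 CPM, and was called higher with palbociclib (log2 1.13, interval 0.77 to 1.49), indisulam (1.27, 0.93 to 1.61) and the combination (1.74, 1.41 to 2.08). ORC1, the subunit that is made anew in each cell cycle, read 11.2, 6.46, 18.5 and 13.1 CPM. Its lowest value was with palbociclib (-0.79 to untreated, not called) and it was called higher in the combination against palbociclib (1.01, 0.64 to 1.38), a call that ended with each of 4 other scalings (0.91 to 1.00) and with a pseudocount of 5 (0.98). ORC4 was nearly flat, at 36.5, 35.2, 36.5 and 38.0 CPM. ORC2 was the only licensing gene lowest with the combination, at a log2 ratio of -0.63 to untreated, and ORC3 and ORC5 lay between -0.05 and 0.54 in the 3 comparisons with untreated cells.

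**Figure D2:**
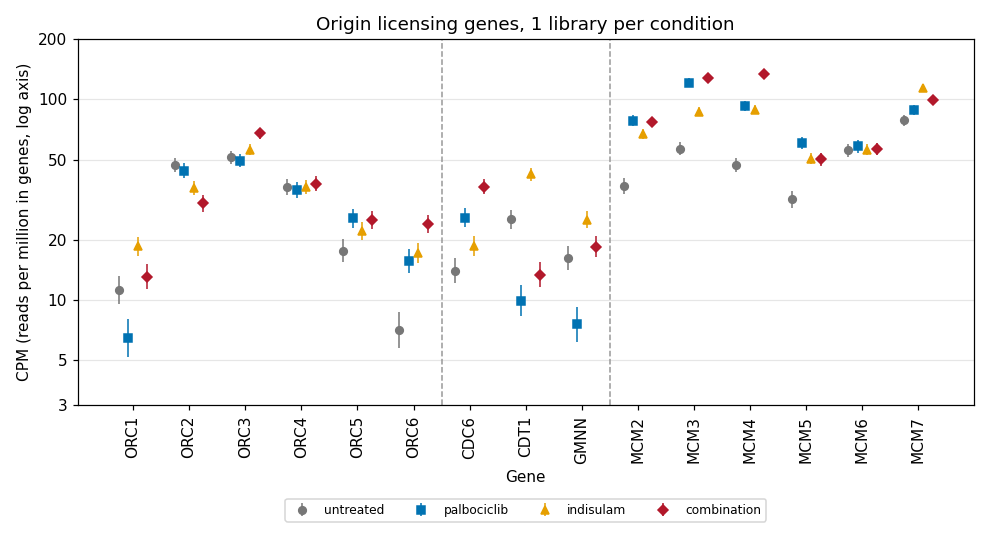
Levels of the 15 origin licensing genes in the 4 libraries, in CPM on a log axis, 1 point per library with its 95% counting interval, and dashed lines that set off the ORC genes, the loading factors and the MCM genes. CDT1 and GMNN were lowest with palbociclib (9.93 and 7.56 CPM), whereas MCM2, MCM3, MCM4 and MCM5 were lowest in untreated cells.

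The 6 genes here that turn the loaded helicase into a fork, GINS1 to GINS4, MCM10 and CDC45, had ratios above 0 in all 3 comparisons with untreated cells. GINS1, a subunit of the 4-part GINS complex, read 7.88 CPM untreated, 11.7 with palbociclib, 19.9 with indisulam and 33.8 with the combination, each above the one before. It was called higher with indisulam (log2 1.33, interval 1.01 to 1.65), with the combination (2.09, 1.78 to 2.40) and in the combination against palbociclib (1.52, 1.26 to 1.79). GINS3 read 7.25, 11.1, 13.8 and 18.0 CPM and was called higher with the combination (1.30, 0.96 to 1.64). GINS4 followed the libraries with palbociclib instead, at 9.40, 19.3, 11.2 and 18.7 CPM, and was called higher with palbociclib alone (1.03, 0.72 to 1.35). Exons on the opposite strand overlap 23.4% of the merged exon length of GINS4 and 10.9% of that of GINS3, and the strand setting of the counting is not given in the sources used here. GINS2 was not called, with a ratio to untreated of at most 0.51. The summed CPM of the 4 GINS genes was 1.58, 1.67 and 2.55 times the untreated sum with palbociclib, indisulam and the combination.

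MCM10, which helps to start the activated helicase, read 3.82, 7.33, 9.45 and 15 CPM. It was called higher with indisulam (log2 1.29, interval 0.83 to 1.75), with the combination (1.96, 1.51 to 2.40) and in the combination against palbociclib (1.03, 0.68 to 1.38). MCM10 and GINS1 were the 2 genes of the 50 called higher with indisulam both against untreated and on top of palbociclib. Of the 14269 genes tested, 694 were called higher in both, so the share in the set was near the background. With 3 other scalings the second MCM10 ratio was 0.93 to 0.98 and not called. CDC45, which joins GINS and the MCM ring, was highest with indisulam and was not called, at log2 ratios of 0.42, 0.94 and 0.87. CLSPN, a checkpoint mediator that travels with the fork, read 3.58, 5.83, 5.74 and 9.19 CPM and was called higher with the combination (1.34, 0.86 to 1.83), from 45 reads in the untreated library.

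FEN1, the nuclease that trims flaps of the lagging strand, had the highest ratio of the set both with palbociclib and with indisulam, while TK1 and CDT1 were further from 0, in the lower direction, with palbociclib. FEN1 (chromosome 11, 61792911 to 61797238) read 16.0 CPM untreated, 39.1 with palbociclib, 42.4 with indisulam and 68.3 with the combination. Its log2 ratios to untreated were 1.28 (1.05 to 1.52), 1.40 (1.18 to 1.63) and 2.09 (1.87 to 2.31), that is 2.43-fold, 2.64-fold and 4.25-fold higher. A pseudogene is named after FEN1, and reads that map to both places would not be counted for either. Pseudogenes are also named after other called genes, 3 for RRM2, 2 for TYMS, 2 for RPA3, 1 for ORC1 and 1 for RFC3. LIG1, the ligase that seals the nick FEN1 leaves, was not called and lay below untreated in all treated libraries, at -0.64, -0.20 and -0.46.

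The polymerase alpha and primase complex, which lays the primers, divided by subunit. POLA1, its catalytic subunit on the X chromosome, read 22.1 CPM untreated, 36.6 with palbociclib, 13.2 with indisulam and 17.8 with the combination. Both libraries with indisulam lay below both without it, and POLA1 was the 1 gene of the set called lower in the combination against palbociclib (log2 -1.04, interval -1.26 to -0.82), where 7.38% of all genes were. Against untreated cells the indisulam ratio was -0.75, not called. POLA2, its partner, was at 0.65, 0.56 and 0.94 in the 3 treated libraries. PRIM2 read 17.8, 26.8, 28.2 and 40.9 CPM and was called higher with the combination (1.20, 0.98 to 1.42). PRIM1, the catalytic primase subunit, was lower in both comparisons that add palbociclib, at -0.83 to untreated and -0.71 on top of indisulam, and was not called in either.

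The 5 subunits of polymerases delta and epsilon in the set, which extend the new strands, varied less. Of POLD1, POLD2, POLD3, POLE and POLE2, none was called in any comparison, and their log2 ratios to untreated ranged from -0.32 (POLD2, combination) to 0.56 (POLD1, indisulam). POLD3 was flat at 23.3, 19.9, 23.0 and 21.6 CPM. PCNA, the sliding clamp, read 40.2, 39.4, 59.0 and 55.1 CPM, so both libraries with indisulam were above both without it, at 0.55 and 0.48 (interval 0.40 to 0.71 and 0.32 to 0.64). Of the clamp loader genes, RFC3 read 22.1, 38.7, 38.1 and 45.3 CPM and was called higher with the combination (1.03, 0.83 to 1.23, though 0.94 to 0.99 and not called with 3 other scalings), whereas RFC5 was flat at 18.2, 17.8, 18.8 and 20.5 CPM. RFC1, the large subunit, was lower only in the palbociclib library (-0.59 to untreated), and RFC2 and RFC4 lay between -0.06 and 0.64.

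The 3 subunits of RPA, which coats single-stranded DNA, gave 3 patterns. RPA3, the smallest, read 64.4 CPM untreated, 29.7 with palbociclib, 36.2 with indisulam and 35.2 with the combination, and was called lower with palbociclib (log2 -1.12, interval -1.29 to -0.94). The second drug added little to RPA3, with 0.24 for the combination against palbociclib and -0.04 against indisulam. RPA1 was lowest with indisulam alone, at a ratio of -0.71 to untreated (-0.82 to -0.59), and was at -0.10 with the combination. RPA2 read 42.5, 47.8, 48.3 and 57.2 CPM, with ratios of at most 0.43. For RPA2 and RPA3, 3 and 2 pseudogenes are named. TIPIN, a fork protection factor, was not called, with ratios to untreated from -0.16 to 0.31.

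**Figure D3:**
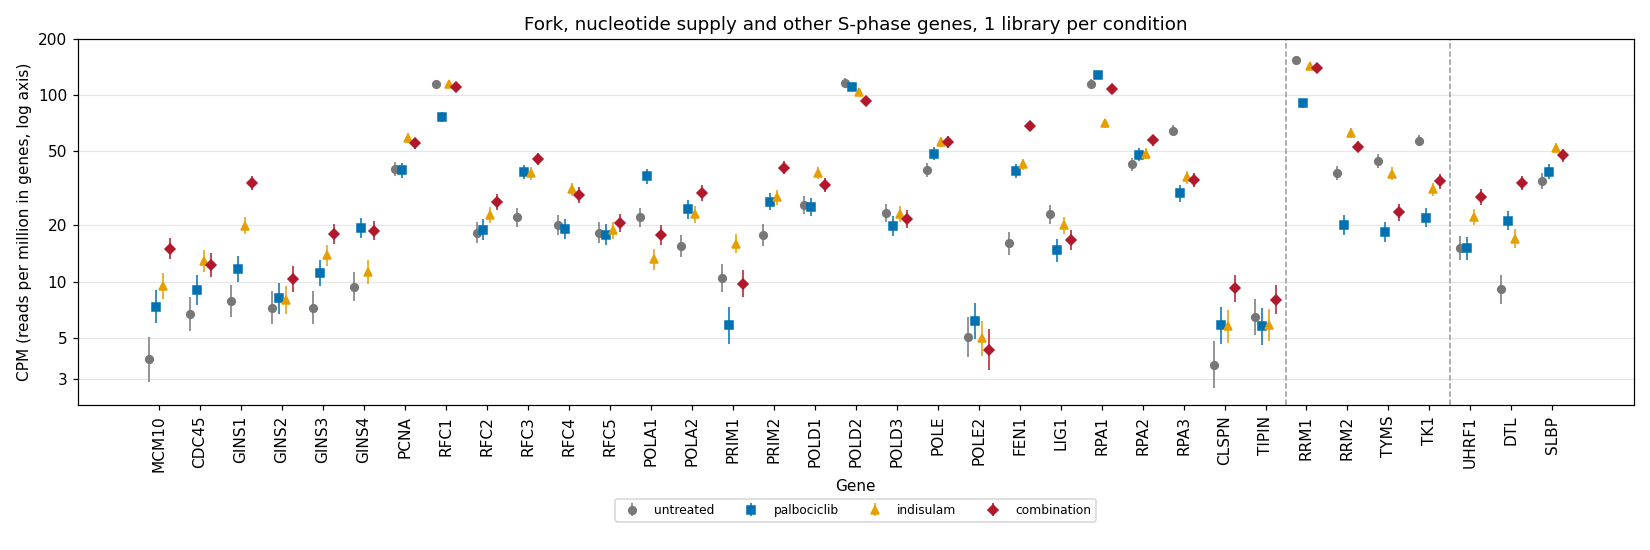
Levels of the 28 fork genes, the 4 nucleotide supply genes and the 3 other S-phase genes in the 4 libraries, in CPM on a log axis, 1 point per library with its 95% counting interval, and dashed lines between the sublists. All 4 nucleotide supply genes were lowest with palbociclib, and GINS1, MCM10, FEN1 and DTL were highest with the combination.

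The 4 nucleotide supply genes were all lowest in the palbociclib library, the reverse of the helicase genes. Their median log2 ratio to untreated was -1.09 with palbociclib, against 0.17 for the licensing genes and 0.17 for the fork genes, and their summed CPM was 0.515 times the untreated sum. TK1, the S-phase thymidine kinase (chromosome 17, 78174091 to 78187233), read 57.0 CPM untreated, 22.0 with palbociclib, 31.2 with indisulam and 34.4 with the combination, and was called lower with palbociclib (-1.37, interval -1.57 to -1.17). TYMS, which makes thymidylate, read 44.4, 18.4, 37.9 and 23.5 CPM and was called lower with palbociclib (-1.26, -1.48 to -1.04). In TYMS both libraries with palbociclib were below both without it. Of the merged exon length of TYMS 47.9% overlaps exons of ENOSF1 and TYMSOS on the opposite strand, so its counts depend on a strand setting that is not given.

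The ribonucleotide reductase subunits were lower with palbociclib and not called. RRM1, the large subunit, read 153, 90.2, 142 and 140 CPM, with a log2 ratio of -0.76 (-0.87 to -0.66) for palbociclib, -0.11 for indisulam and -0.13 for the combination. RRM2, the small subunit, read 38.1, 20.2, 62.8 and 52.9 CPM, with -0.92 (-1.14 to -0.70) for palbociclib. RRM2 was called higher in the combination against palbociclib (1.39, 1.18 to 1.59). In that comparison, which shares the palbociclib library with the one above, all 4 nucleotide supply genes were above the palbociclib library, at 0.63 (RRM1), 1.39 (RRM2), 0.35 (TYMS) and 0.64 (TK1). Against untreated cells the combination left RRM2 higher, at 0.47, and RRM1, TYMS and TK1 lower, at -0.13, -0.92 and -0.73, none of them called.

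Of the other S-phase genes, DTL, the adaptor that sends CDT1 for degradation in S phase, read 9.08 CPM untreated, 21.2 with palbociclib, 16.9 with indisulam and 33.8 with the combination. DTL was called higher with palbociclib (log2 1.22, interval 0.90 to 1.53) and with the combination (1.89, 1.60 to 2.18). UHRF1, which keeps DNA methylation after replication, read 15.1, 15, 22.2 and 28.3 CPM, and SLBP, which binds histone mRNAs, read 34.6, 38.8, 52.1 and 47.4 CPM. Neither was called, and in both the 2 libraries with indisulam were above the 2 without it.

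The 4 libraries give each drug effect from pairs that share no library. For palbociclib, the ratio to untreated and the ratio of the combination to indisulam had Pearson's r of 0.75 and Spearman's rho of 0.74 across the 50 genes, and 0.52 and 0.49 across all genes tested. Across genes these are descriptions, since genes are not independent replicates and the genes of each pair share library and depth. The genes tested also include 2893 averaging 1 to 5 CPM, a range of low counts that holds 0 genes of the set. The values for the set and for all genes are therefore not strictly comparable. The sign was the same in 39 of the 50 genes, 23 above and 16 below 0 (78%, against 67.6% of all genes). In 18 genes both counting intervals lay above 0, among them CDC6, MCM2, MCM3, MCM4, ORC6, FEN1, GINS4 and DTL, and in 7 both lay below, namely ORC1, CDT1, GMNN, PRIM1, LIG1, RRM2 and TYMS. Over all genes tested, 15.9% had both intervals above 0 and 17.8% both below. On top of indisulam 0 genes of the set were called higher, against 5.04% of all genes, and 1 (2%) was called lower, CDT1, against 3.15%. Among genes averaging at least 5 CPM, as the whole set did, these shares were 2.58% and 2.21%. DTL and CDC6 came nearest to a higher call in that comparison, at log2 ratios of 1.00 (0.78 to 1.21, just short of 2-fold before rounding) and 0.97.

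For indisulam, the ratio to untreated and the ratio of the combination to palbociclib had Pearson's r of 0.57 and Spearman's rho of 0.54 across the 50 genes. Across all genes the values were 0.73 and 0.66, with the same limit on comparing them. The sign was the same in 74% of the set and in 74% of all genes. In 27 of the 50 genes both counting intervals lay above 0, against 25.2% of all genes, and in 4 both lay below, against 18.4%. On top of palbociclib 5 genes (10%) were called higher (ORC1, GMNN, MCM10, GINS1 and RRM2), against 9.56% of all genes. In that comparison 1 (2%) was called lower, against 7.38%. Among genes averaging at least 5 CPM these shares were 6.69% and 5.58%.

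**Figure D4:**
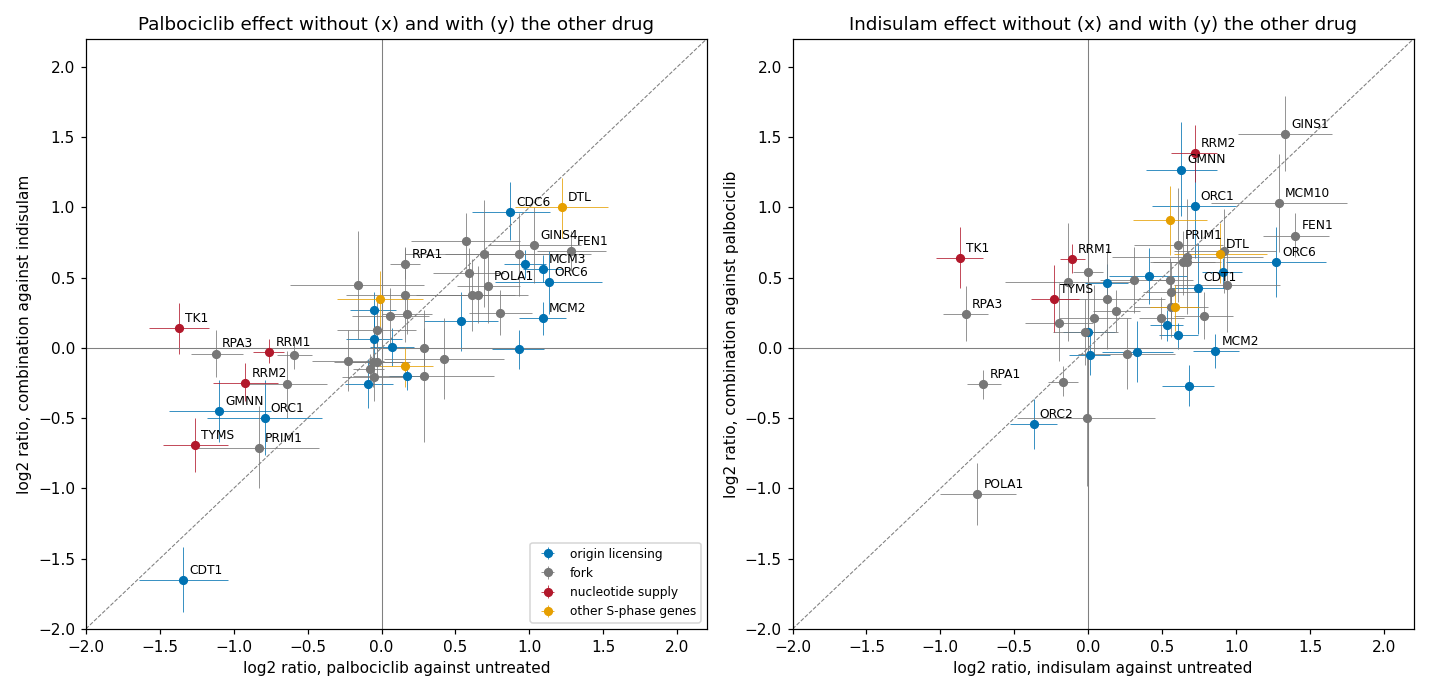
Each drug effect for the 50 genes without the other drug (x axis) and with it (y axis), as log2 ratios with 95% counting intervals, coloured by sublist, with the line of equal effects dashed. For palbociclib CDT1 lies at the lower left (-1.34 and -1.65) and DTL at the upper right (1.22 and 1.00), and for indisulam TK1 lies at the upper left (-0.87 and 0.64).

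The departure from additivity, which is how far the log2 ratio of the combination lies above (or, if negative, below) the summed ratios of the single drugs, was close to 0 for the set as a whole (median -0.06, against 0.01 for all genes). The sublists differed in sign, where 50.5% of all genes tested were above 0. A gene's departure is made from the same 4 libraries as its ratios. A low untreated library, as for MCM2 to MCM7, lowers it, and a low palbociclib library, as for the nucleotide supply genes, raises it. All 6 MCM2 to MCM7 genes were below 0 (median -0.45), from -0.94 (MCM5) to -0.06 (MCM6, whose interval included 0). All 4 nucleotide supply genes were above 0 (median 0.70), from 0.57 (TYMS) to 1.51 (TK1), and all 3 RPA genes were above 0 (0.07 to 1.07). TK1 was the only gene of the set with a drug effect of at least 1.5-fold in opposite directions, indisulam giving -0.87 (-1.03 to -0.71) alone and 0.64 (0.43 to 0.86) on top of palbociclib. That rule was applied to the set only, so the share of all genes that would meet it is not known. The spread of the departures over genes of like level gives a bound on the noise of a single ratio, since it holds the noise of 4 libraries and any true interaction. That bound, as an SD in log2 units, was 0.37 for genes at 5 to 20 CPM, 0.26 at 20 to 100 CPM and 0.28 above.

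Of 47 further genes of replication, which are not in the set, 1 was called higher and 4 lower with palbociclib (2.13% and 8.51%, against 5.85% and 4.89% of all genes). With indisulam 1 and 1 were called (2.13% each, against 8.39% and 6.69%), and with the combination 6 and 1 (12.8% and 2.13%, against 12.9% and 10.5%). Of the 11 called in any comparison, the 10 with the largest ratios are named. CCNA2 (cyclin A2) read 40.5, 10.0, 55.3 and 29.2 CPM in the untreated, palbociclib, indisulam and combination libraries, and was called lower with palbociclib (log2 -2.01, interval -2.29 to -1.73) and higher in the combination against palbociclib (1.54). PCLAF, a PCNA-binding factor, followed the same pattern (-1.96 and 1.35). TOP2A (-1.41), the topoisomerase that separates replicated strands, and POLD4 (-1.52), the smallest polymerase delta subunit, were also called lower with palbociclib. CCNE1 (cyclin E1) read 3.50, 14.7, 5.27 and 14.7 CPM, called higher with palbociclib (2.04), with the combination (2.05) and on top of indisulam (1.47). CCNE2 was called higher with the combination (1.75, 1.07 to 2.43) and in the combination against palbociclib (1.41, 0.79 to 2.03), from 21 untreated and 27 palbociclib reads. TICRR, which helps CDC45 join the helicase, was called higher with indisulam (1.49), with the combination (1.12) and in the combination against palbociclib (1.10), and RNASEH2A, a subunit of ribonuclease H2, was called lower with indisulam (-1.12) and with the combination (-1.22). SAMHD1 (1.22), which breaks down deoxynucleotides, and CTPS1 (1.16), which makes CTP, were called higher with the combination.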

How the data were processed

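The authors deposited 1 table of raw read counts per gene for each library, with whole-number counts for 60279 Ensembl genes. Per the labels RNA was extracted with Trizol and made into stranded mRNA libraries, and the submitters' processing notes name TopHat2 2.1, HTSeq and GRCh38. The annotation release and the strand setting are not given in the sources used here. Rows that name no gene held 9.61 to 10.1% of reads and were left out. Multi-mapped reads (6.46 to 6.84%) were among these, so genes with close copies may be undercounted. Symbols, positions and merged exon lengths came from GENCODE 44 (GRCh38), and start regions from RefSeq GRCh38.p14.

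Counts were divided by the library gene total and compared as log2 ratios with Poisson intervals (z of 1.96) and a pseudocount of 1 scaled count. The interval calculation was tested on simulated counts drawn with counting error only, which checks the arithmetic and does not cover spread between replicates. Python 3.11.15, pandas 2.3.3, numpy 2.4.6, edgeR 4.0.16 and DESeq2 1.42.0 were used, the last 2 for scaling factors only. Given in full were genes called in any comparison, genes with opposite drug effects and, per sublist, the 2 most abundant per kilobase and the 2 with the smallest range. The genes, lists and rules were chosen with earlier results of these data known.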

Additional observations from a re-analysis of the deposited data

Results flagged for a closer look

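TK1, the S-phase thymidine kinase, was flagged because indisulam moved it in opposite directions without and with palbociclib. Indisulam alone gave a log2 ratio of -0.87 to untreated (31.2 against 57.0 CPM), and indisulam on top of palbociclib gave 0.64 (34.4 against 22.0 CPM). The departure from additivity was 1.51 (95% counting interval 1.25 to 1.78). With 1 library per condition the difference was not tested against replicate spread, and genes outside the set were not searched for such a reversal.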

How the results depend on the processing

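No direction of a called ratio changed under any alternative run. Of the 35 called ratios, 31 were still called with TMM factors, 32 with upper-quartile factors and 31 with median-of-ratios size factors. With totals that leave out mitochondrial genes 34 were, with a pseudocount of 0.5 35 and with a pseudocount of 5 34. With intervals widened by a coefficient of variation of 0.15 all 35 stayed, but that outcome was fixed in advance. A call already needs a 2-fold ratio, and at these counts the widened interval cannot reach from there to equality. That run therefore says nothing of replicate spread. Raising the filter to a mean of 5 CPM left the calls of the set unchanged and lowered the background shares, as given above. The calls lost were ORC1 and MCM10 in the combination against palbociclib and MCM2 and RFC3 in the combination against untreated, each within 0.1 of the threshold on the log2 scale. In the combination against palbociclib the genes called higher numbered 3 in place of 5 with TMM, upper-quartile and median-of-ratios factors. In the combination against untreated 2 genes, CDT1 (-1.01) and TYMS (-1.01), were called lower with TMM in place of 0. In the combination against indisulam 2 genes, CDC6 (1.01) and DTL (1.03), were called higher with upper-quartile factors and 1, DTL, with totals without mitochondrial genes, in place of 0. With a threshold of 1.5-fold, 16 genes were called higher and 11 lower with palbociclib (12.6% and 12.2% of all genes), 21 and 4 with indisulam (17.2% and 14.2%), 18 and 5 with the combination (23.1% and 19.4%), 16 and 1 in the combination against palbociclib (18.4% and 14.5%), and 9 higher and 3 lower in the combination against indisulam (12% and 10.2%). The medians of the set moved by less than the median half-width of its intervals, 0.19 to 0.31, under every alternative run. The largest shift of the median of all genes between scalings was -0.10, in the combination against palbociclib with TMM. The share of start regions with an E2F-type site was 65.9% with the 7-letter forms, against 20.2% of tested genes. Depth did not remove any gene of the set, but intervals were wide for CLSPN, POLE2 and MCM10. No paired analysis was possible because each condition had 1 library, and for the same reason no library could be left out.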
